A study of Homo sapiens with 12 samples.

Results

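The mitochondrial protein import machinery is the set of receptors, channels, chaperones and motor subunits that carry proteins made in the cytosol into mitochondria. Its transcripts were followed here through a list of 32 genes, set by name: the translocase of the outer membrane (TOM), the sorting and assembly machinery (SAM) with the metaxins, the inner membrane translocases TIM23 and TIM22, the small TIM chaperones, the import motor and the disulfide relay. These are 32 of the 28278 genes in the count table, and 31 of them carried enough reads to be tested among 15916 genes. By place, 12 encode parts of the outer membrane (with cytosolic TOMM34), 15 parts of the inner membrane or the small TIM proteins, and 5 parts in the matrix or intermembrane space.

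RNA-seq was performed on WA26, an established human embryonic stem cell (hESC) line, with 2 libraries in each of 4 groups: wild-type (WT) cells in normal O2, UBQLN1 KO cells in normal O2, UBQLN1 KO cells in 5% O2 and UBQLN1 KO cells given N-acetyl-L-cysteine (NAC), an antioxidant and cysteine donor. UBQLN1 encodes ubiquilin 1, which escorts ubiquitinated proteins to the proteasome and can hold mitochondrial membrane proteins in the cytosol before import. The culture changes asked whether lowering oxidative stress altered the knockout cells, and each treated group carried the knockout too. WT libraries with NAC or in 5% O2 are not analysed here, so a response that needs the knockout and one that does not cannot be told apart. The paper describes RNA-seq after hours in low O2, while its scheme shows NAC and low O2 kept over many passages with a DMSO control. The exposure time behind each library is not given here, so exposure time and treatment cannot be told apart. The study made the knockout by CRISPR/Cas9 and picked a pair of clones per genotype. The labels do not give the clone, the culture or any vehicle behind a library. P-values therefore measure only the spread between these libraries, which may be technical.

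Nearly all mitochondrial proteins enter through TOM, where TOMM20, TOMM22 and TOMM70 receive precursors and TOMM40 forms the channel. Precursors with a cleavable presequence pass on to TIM23 and are pulled into the matrix by the motor around mitochondrial HSP70, multispanning carriers are handed by small TIM chaperones to TIM22, and β-barrel proteins are placed in the outer membrane by SAM. Small cysteine-rich proteins of the intermembrane space are trapped there by the CHCHD4 and GFER disulfide relay.

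The sequence upstream of a start site is shown for the members with the largest NAC responses, as counted, that had an entry in the promoter set. TIMM22, with only 2 to 20 counts, is left out. Sequences are also shown for TOMM40, the 1 member that fell as counted, and for CHCHD4. Each line gives the 250 bases before the RefSeq start on GRCh38.p14, read along the gene's strand, and capitals mark matches on either strand to the NRF1 motif (nuclear respiratory factor 1, a GC-rich near-palindrome), to CCGGAAG (ETS factors, among them GABPA), ACGTG (the core of the hypoxia response element) or AAGATGGC (YY1). The palindrome CACGTG matches ACGTG on both strands.
TOMM20, import receptor, chr1:235128838-235129087, minus strand: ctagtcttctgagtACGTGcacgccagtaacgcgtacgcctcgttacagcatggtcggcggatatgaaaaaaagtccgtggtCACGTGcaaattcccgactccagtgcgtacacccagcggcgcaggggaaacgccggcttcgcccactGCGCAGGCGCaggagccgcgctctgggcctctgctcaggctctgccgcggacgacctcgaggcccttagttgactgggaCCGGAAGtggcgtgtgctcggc
TOMM22, central receptor, chr22:38681707-38681956, plus strand: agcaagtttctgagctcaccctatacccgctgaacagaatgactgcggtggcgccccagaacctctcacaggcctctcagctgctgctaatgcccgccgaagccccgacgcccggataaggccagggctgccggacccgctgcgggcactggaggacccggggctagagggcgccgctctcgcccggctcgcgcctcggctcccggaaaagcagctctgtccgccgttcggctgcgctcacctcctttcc
TIMM9, small TIM chaperone, chr14:58427532-58427781, minus strand: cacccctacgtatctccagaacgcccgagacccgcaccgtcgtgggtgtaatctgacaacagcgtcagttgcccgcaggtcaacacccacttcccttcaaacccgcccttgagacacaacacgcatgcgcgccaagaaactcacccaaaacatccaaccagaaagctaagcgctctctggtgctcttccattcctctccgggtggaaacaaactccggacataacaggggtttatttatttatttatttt
GRPEL2, motor nucleotide exchange factor, chr5:149345249-149345498, plus strand: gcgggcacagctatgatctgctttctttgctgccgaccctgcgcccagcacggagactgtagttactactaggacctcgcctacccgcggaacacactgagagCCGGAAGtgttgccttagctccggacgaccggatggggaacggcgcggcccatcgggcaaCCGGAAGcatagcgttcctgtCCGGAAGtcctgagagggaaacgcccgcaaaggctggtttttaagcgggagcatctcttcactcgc
CHCHD4, disulfide relay, chr3:14124871-14125120, minus strand: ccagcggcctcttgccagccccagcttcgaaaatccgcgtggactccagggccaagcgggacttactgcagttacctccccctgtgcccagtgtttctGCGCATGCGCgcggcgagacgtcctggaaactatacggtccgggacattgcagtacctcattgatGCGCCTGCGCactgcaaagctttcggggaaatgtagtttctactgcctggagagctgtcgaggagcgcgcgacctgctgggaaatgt
TOMM40, channel, chr19:44891004-44891253, plus strand: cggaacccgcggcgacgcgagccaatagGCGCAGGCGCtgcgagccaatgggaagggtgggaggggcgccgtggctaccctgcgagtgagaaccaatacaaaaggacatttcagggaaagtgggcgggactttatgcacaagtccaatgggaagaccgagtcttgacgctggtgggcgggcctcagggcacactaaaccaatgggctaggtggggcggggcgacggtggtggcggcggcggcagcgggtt
GRPEL1, TIMM8B and TOMM5 had no entry. Among the 29 members with one, 7 (24.1%) held the NRF1 motif in these 250 bases, against 5.53% of 27305 promoters, and 10 (34.5%) held the ETS motif, against 8.82%. The hypoxia core was in 7 (24.1% against 18.7%) and the YY1 motif in 1, TOMM40L (3.45% against 1.37%). A motif match is a description of the sequence and not a bound site. TOMM20 held NRF1, ETS and hypoxia matches, GRPEL2 had 3 ETS matches and CHCHD4 had 2 NRF1 matches. TOMM22 and TIMM9 had none of the 4 motifs in this window, and TOMM40 had 1 NRF1 match. Whether any of these matches bears on the levels with NAC was not tested.

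The libraries held 31236968 to 41639350 counts in genes. UBQLN1 itself had 7382 and 7591 counts in the WT libraries and 1559, 1789, 2116, 1530, 2392 and 1476 in the 6 knockout libraries, so every library matched its genotype label at the transcript level. In CPM (counts scaled to library size by the trimmed mean of M-values, used for levels of 1 gene between libraries), UBQLN1 was at 221 and 197 in WT and at 42.3 to 62.4 in the knockout groups. The 8 pluripotency markers summed to 6548 to 6607 CPM in WT, 6265 to 6491 in KO, 5975 to 5979 in 5% O2 and 5059 to 5685 with NAC. They did not move together with NAC against KO. DNMT3B (log2FC -0.97, SE 0.10) and NANOG (-0.31, SE 0.09) fell, and ZFP42 (0.61, SE 0.09) and TDGF1 (0.26, SE 0.07) rose. POU5F1, SOX2, LIN28A and PODXL did not pass. With the trend described with the NAC results removed, TDGF1 turned to -0.28, and SOX2 (-0.30) and PODXL (0.31) passed. The neural progenitor gene NES (nestin, also made outside neural cells) was at 266 and 226 CPM in WT, 451 and 422 in KO, 212 and 287 in 5% O2 and 126 and 129 with NAC. It fell with NAC against KO by 1.78 on the log2 scale (SE 0.13, edgeR adjusted p = 1.3e-05) and by 1.13 with the trend described with the NAC results removed, whereas PAX6 and NEUROD1 were at 0.104 CPM or less in every library. The part of these shifts in the import results was not tested. NAC replicate 1 stood apart: the fibroblast genes DCN, COL3A1 and LUM had 1809, 1114 and 148 counts there and, except for 8 COL3A1 counts in WT replicate 2, 0 elsewhere. The 10 mesenchymal markers summed to 1054 CPM in that library and to 568 in NAC replicate 2, with 528 to 641 in the other 6 libraries. Within these sums THY1 was at 332 to 476 CPM and COL1A2 at 113 to 245 CPM across all libraries. In such bulk RNA, fewer cells of a type and less RNA per cell cannot be told apart.

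Import transcripts spanned a wide range of levels. Per kilobase of transcript (RPKM, the mean over all libraries, used to set genes side by side), the small TOM subunits TOMM6 (275) and TOMM7 (221), which stabilise the channel complex, were the most abundant, followed by TOMM5 (155), the channel TOMM40 (151), the small TIM chaperone TIMM13 (138) and TOMM20 (128). The least abundant of the well-counted members were TOMM40L (8.82), a channel paralog, TIMM21 (10.98), which links TIM23 to the outer membrane, and GRPEL2 (13.7). PAM16, a J-like regulator of the motor, had 1 to 8 counts in every library and was not tested. TIMM22, the channel of the carrier pathway, had 2 to 20 counts, and its values say little about its level. Of TIMM22's 31-base words, 97.3% also occur on alternate scaffolds of hg38, as do 78.5% of those of PAM16, whose exon bases overlap the readthrough gene CORO7-PAM16 over 83.1% of their length. Counting by default settings drops reads that map to several places or overlap several genes, and what this removed from these genes was not tested. TOMM40 (48.4% of words elsewhere on the primary chromosomes), MTX1 (39.6%), TIMM8A (35.7%), TOMM20 (34.2%), TOMM7 (33.9%), TIMM50 (24.9%) and TIMM23 (24.0%) also share sequence with near copies, and TOMM6 (100% of exon bases), TOMM5 (81.9%), GFER (44.6%) and TIMM8B lie over other annotated genes, so their levels are uncertain in the same way.

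**Figure D1:**
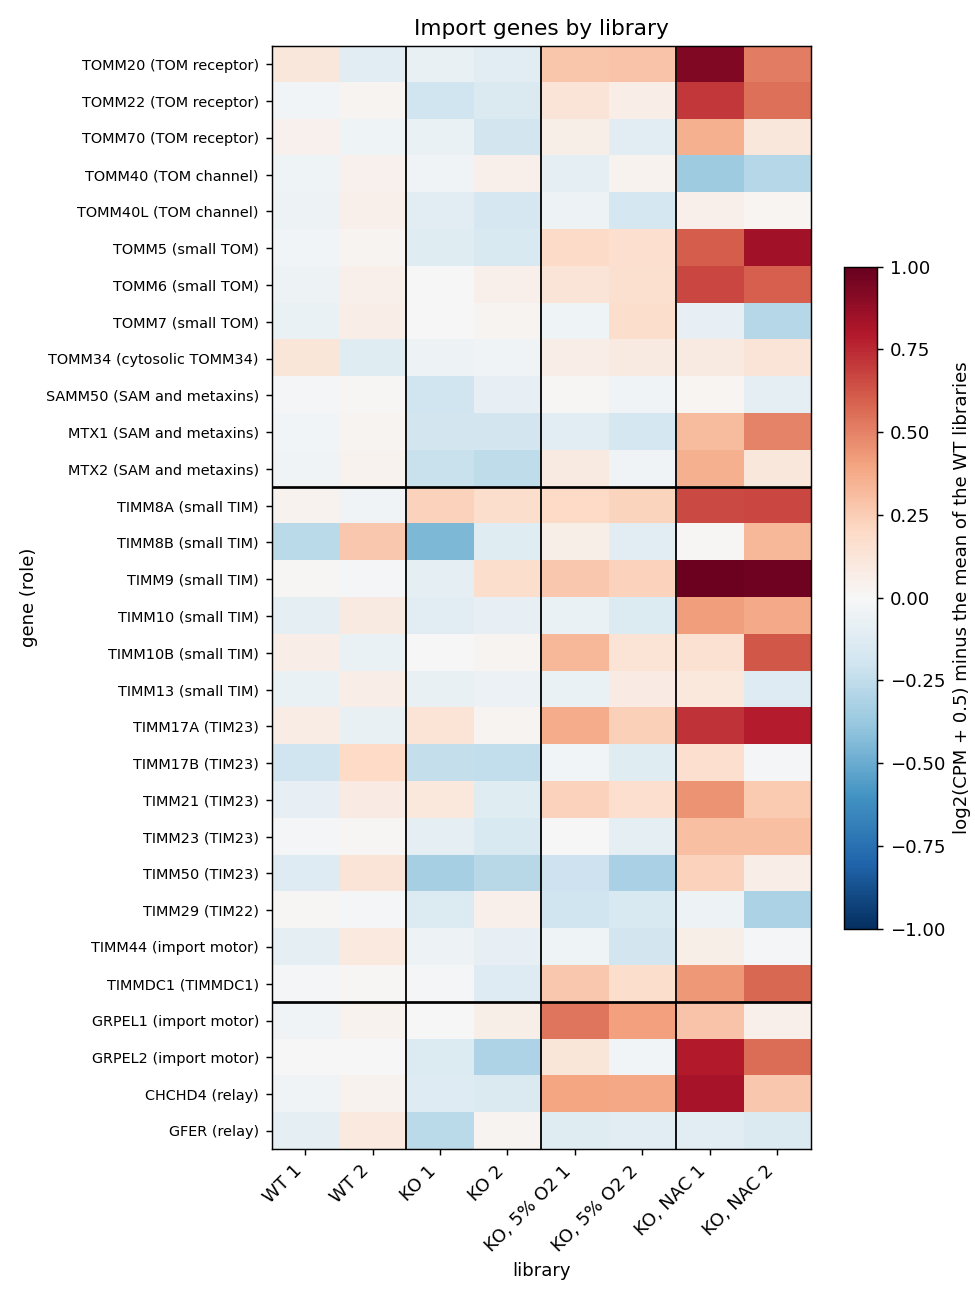
Each row is 1 of 30 import genes with its role (TIMM22 and PAM16, with at most 20 counts, are left out), each column is a library, and the colour is log2(CPM + 0.5) minus the mean of the WT libraries. The NAC columns are mostly red, with TOMM40, TOMM7, TIMM29 and GFER blue or pale blue. The 5% O2 columns are paler, and the KO columns lie near the WT level.

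Loss of UBQLN1 left no import gene past the test. Compared with WT, 0 of 31 members were called higher and 0 lower in KO cells in normal O2 at an adjusted p under 0.05 in edgeR's quasi-likelihood test, where 1.34% of all tested genes were called higher and 0.622% lower. DESeq2 also called 0, as did the study's criteria (an absolute log2FC over 1 and an unadjusted p under 0.05), which took in 1.11% of all tested genes as higher and 1.46% as lower. The log2 fold change (log2FC) was below 0 for 23 of 31 members, against 50.4% of all tested genes, and its median was -0.10 over the members and -0.0024 over all tested genes. At an unadjusted p under 0.05, 0 members were higher and 2 were lower, with 9.50% and 8.12% of all tested genes. All 3 TOM receptors and all 3 SAM and metaxin genes had values below 0, with medians of -0.13 and -0.19, while the small TIM chaperones split 3 above and 3 below.

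The 3 members with the lowest unadjusted p were TIMM50, MTX2 and TIMM17B. TIMM50, the TIM23 receptor that guides presequences to the channel, had 186 and 222 CPM in WT and 162 and 168 in KO, a log2FC of -0.31 (SE 0.10, unadjusted p = 0.0112, edgeR adjusted p = 0.145). The KO libraries lay below both WT libraries, but WT replicate 2 carried much of the gap, and without it the log2FC was -0.17. MTX2, a metaxin of the SAM complex, was at 38.1 and 40.2 CPM in WT and at 33.6 and 32.8 in KO (log2FC -0.24, SE 0.11, unadjusted p = 0.0498). TIMM17B, a core TIM23 subunit, was at 70.1 and 92.3 CPM in WT and at 68.2 and 67.6 in KO (log2FC -0.26, SE 0.13, unadjusted p = 0.0615). In 13 members both KO libraries lay below both WT libraries (27.0% of all tested genes did), and in 1, TIMM8A, both lay above (27.7%). With the dependence on length and GC content taken out, 0 members were called (0.666% of all tested genes higher, 0.653% lower) and the median was -0.03. With no filter on low counts, TIMM50 passed the test (edgeR adjusted p = 0.0419), where 2.22% of all tested genes were called lower.

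NAC was followed by higher levels of most import transcripts in the knockout cells. Compared with untreated KO cells, 19 of 31 members rose and 1, TOMM40, fell, with 23.8% of all tested genes called higher and 20.8% lower. These calls depended on a trend with GC content given after the genes, without which 7 members were higher and 1, TOMM7 instead of TOMM40, was lower. The other 11 did not pass. The median log2FC was 0.45 over the members and 0.02 over all tested genes, and 27 of 31 members had a value above 0, against 51.4% of all tested genes. In 23 members both NAC libraries exceeded both KO libraries (36.2% of all tested genes did) and in 2 both lay below (34.0%). Outer membrane, inner membrane and matrix or intermembrane space members had medians of 0.42, 0.45 and 0.44. With the GC trend taken out these medians were 0.12, 0.15 and 0.34, the last over only 4 tested genes. By the study's criteria 0 members were called, against 3.63% of all tested genes higher and 5.39% lower.

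All 3 TOM receptors rose, TOMM70 only as counted. TOMM20, which binds presequences, was at 331 and 324 CPM in KO and at 665 and 499 with NAC, a 1.78-fold difference (log2FC 0.83, SE 0.12, edgeR adjusted p = 0.00022). TOMM22, which joins receptors to channel, was at 135 and 139 CPM in KO and at 252 and 227 with NAC (1.75-fold, log2FC 0.80, SE 0.09, edgeR adjusted p = 3.31e-05). Neither NAC library overlapped the KO libraries for these receptors, and the NAC libraries of TOMM20 were far apart, with replicate 1 the higher. TOMM70, the receptor for carrier precursors and their chaperones, rose less (log2FC 0.37, SE 0.10) and did not pass without NAC replicate 1 (0.24, edgeR adjusted p = 0.0791) or with the GC trend taken out (0.04, edgeR adjusted p = 0.788).

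The small TOM subunits differed. TOMM5 was at 85.6 and 83.7 CPM in KO and at 142 and 167 with NAC (1.82-fold, log2FC 0.87, SE 0.10, edgeR adjusted p = 3.78e-05). TOMM6 was at 133 and 138 CPM in KO and at 211 and 202 with NAC (1.53-fold, log2FC 0.61, SE 0.08). TOMM7, which also acts in PINK1 handling at the outer membrane, was at 97.7 and 99.5 CPM in KO and at 92.2 and 79.96 with NAC and did not pass (log2FC -0.19, SE 0.11, edgeR adjusted p = 0.163). The NAC libraries of TOMM5 and TOMM6 lay above the KO libraries, and those of TOMM7 below. With the GC trend taken out TOMM5 (0.19, edgeR adjusted p = 0.142) and TOMM6 (0.17, 0.106) did not pass. TOMM7 was then called lower (-0.55, 0.00544).

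As counted, the channel moved against its receptors. TOMM40 was at 274 and 291 CPM in KO and at 219 and 231 with NAC, a fall to 0.796 of the KO level (log2FC -0.33, SE 0.08, edgeR adjusted p = 0.00768). WT cells had 272 and 290 CPM and cells in 5% O2 264 and 288, so only the NAC pair lay below the other 6 libraries. The call was lost without KO replicate 2 (-0.29) and with the GC trend taken out (-0.08, edgeR adjusted p = 0.402). Its low-level paralog TOMM40L did not pass (0.18, SE 0.11). TOMM34, a cytosolic co-chaperone of precursors, and SAMM50, the SAM core that inserts β-barrels, did not pass (0.15 and 0.10), whereas its partners MTX1 (0.60, SE 0.11) and MTX2 (0.48, SE 0.11) rose, MTX2 turning below 0 once the GC trend was taken out.

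In the inner membrane list 10 of 15 rose and 0 fell. Of the small TIM chaperones, which shield hydrophobic precursors across the intermembrane space, 5 of 6 rose as counted. Once the GC trend was taken out 0 of the 6 passed, with TIMM8A and TIMM8B turning below 0. TIMM9, which forms a hexamer with TIMM10, had the largest rise of any member as counted. It was at 17.3 and 20.9 CPM in KO and at 36.8 and 36.6 with NAC (1.92-fold, log2FC 0.94, SE 0.12, edgeR adjusted p = 8.53e-05). With the GC trend taken out its log2FC was 0.16 (edgeR adjusted p = 0.323). Every library without NAC had between 17.3 and 22.3 CPM. TIMM10 rose by less (0.50, SE 0.10), as did TIMM8A (0.47, SE 0.11), TIMM8B (0.46, SE 0.17) and TIMM10B (0.39, SE 0.14), and TIMM13 did not pass (0.06, SE 0.10).

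Of the 5 TIM23 genes 4 rose, with TIMM17A, TIMM21 and TIMM23 turning below 0 once the GC trend was taken out. TIMM17A, a core subunit, was at 60.03 and 55.4 CPM in KO and at 90.2 and 94.2 with NAC (1.60-fold, log2FC 0.68, SE 0.10, edgeR adjusted p = 0.000207). The receptor TIMM50 was at 162 and 168 CPM in KO and at 239 and 213 with NAC (log2FC 0.45, SE 0.10), the channel TIMM23 had a log2FC of 0.43 (SE 0.08) and TIMM21 one of 0.37 (SE 0.12). TIMM17B, the paralog of TIMM17A, just missed (0.32, SE 0.13, edgeR adjusted p = 0.0543). TIMM29, a TIM22 subunit, had a log2FC of -0.14 (SE 0.13) and did not pass, nor did TIMM44, which tethers the motor to TIM23 (0.10, SE 0.10). TIMMDC1, a relative of the TIM17 family that acts in complex I assembly, rose as counted (0.58, SE 0.09). It did not pass with the GC trend taken out (0.13, edgeR adjusted p = 0.276).

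In the matrix and intermembrane space 2 of 4 tested members rose. GRPEL2, a nucleotide exchange factor for mitochondrial HSP70, was at 44.7 and 39.5 CPM in KO and at 85.5 and 72.4 with NAC (1.88-fold, log2FC 0.91, SE 0.11, edgeR adjusted p = 6.65e-05). CHCHD4, the oxidoreductase of the disulfide relay, was at 17.5 and 17.4 CPM in KO and at 34.3 and 23.3 with NAC (1.66-fold, log2FC 0.73, SE 0.16, edgeR adjusted p = 0.00303). Its NAC libraries were well apart, and without replicate 1 the log2FC was 0.41. With the GC trend taken out CHCHD4 did not pass (0.37, edgeR adjusted p = 0.102). GFER, the oxidase that recharges CHCHD4, was at 51.7 and 63.5 CPM in KO and at 57.5 and 56.4 with NAC, with overlapping groups, and GRPEL1 did not pass (0.14, SE 0.10).

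**Figure D2:**
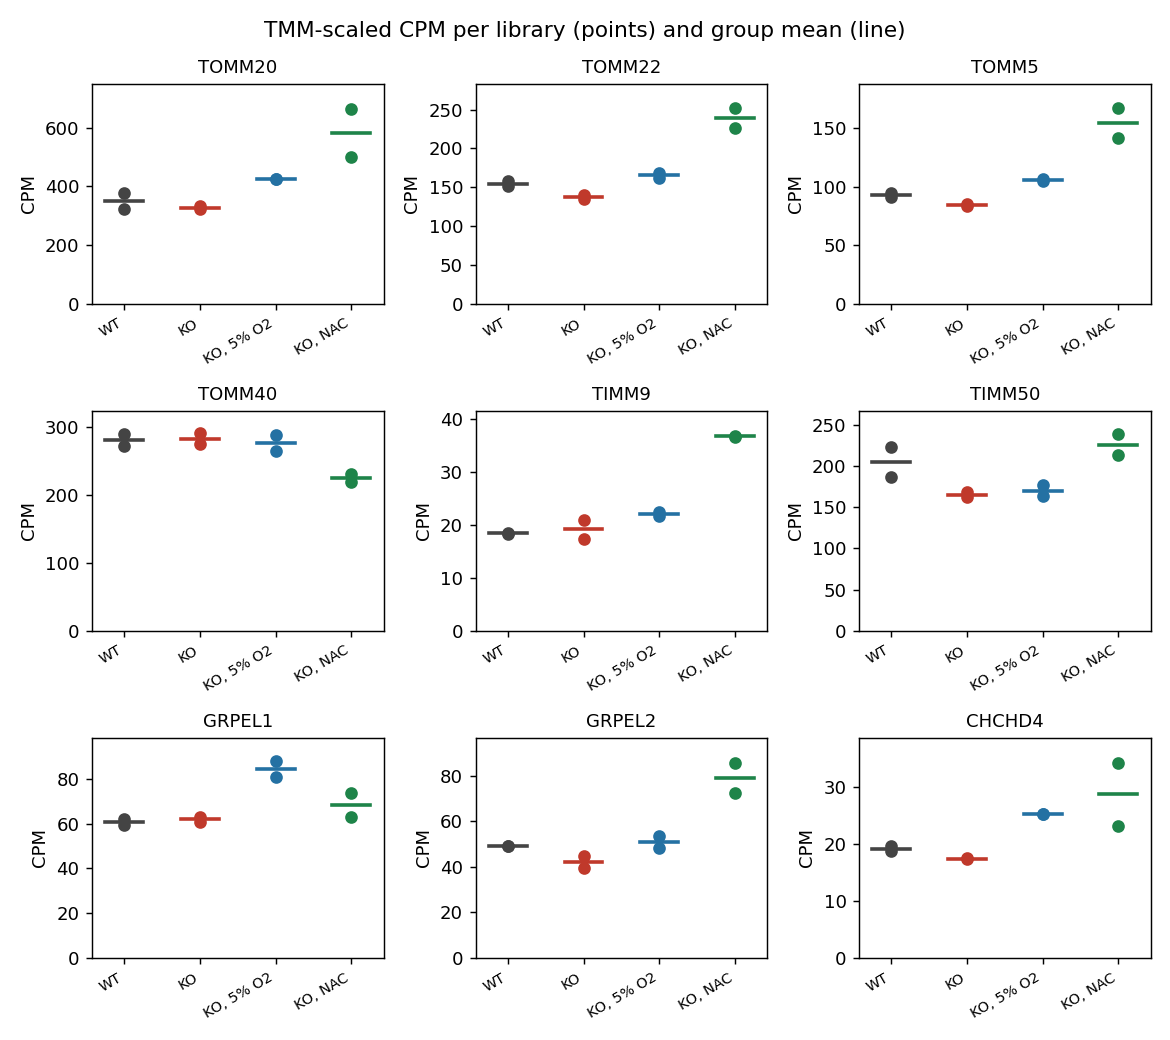
CPM of 9 import genes in each library (points) with the group mean (line), each panel starting at 0. TIMM9, TOMM22, TOMM5, TOMM20 and GRPEL2 were highest in the NAC libraries, TOMM40 was lowest there, and GRPEL1 was highest in the 5% O2 libraries.

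Without NAC replicate 1, the library with fibroblast transcripts, 17 members were called higher and 2 lower, TOMM40 (-0.29) and TOMM7 (-0.30), against 21.2% and 19.7% of all tested genes, and the members' median was 0.36. TIMM9 stood at 0.94, TOMM5 at 0.98, GRPEL2 at 0.78, TOMM22 at 0.72, TIMM17A at 0.70 and TOMM20 at 0.60. TOMM70 and TIMM21 (0.27, edgeR adjusted p = 0.129) no longer passed.

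The NAC response ran with base composition across the transcriptome, and import genes were part of that trend. Over 15281 genes with known GC content, the log2FC with NAC had a Spearman correlation of -0.49 with transcript GC content, and over the 31 members -0.58, a description across genes that share the same libraries. Among transcripts of 40 to 45% GC the median log2FC was 0.29 for all genes and 0.53 for 10 members. From 50 to 55% GC it was -0.15 for all genes and 0.32 for 6 members, and above 60% GC -0.44 for all genes and 0.02 for 6 members. TIMM9 (41.3% GC), GRPEL2 (38.6%) and TIMM17A (40.4%) are AT-rich, and TOMM40 (63.3%), TIMM13 (62.1%), GFER (62.2%) and MTX1 (63.4%) are GC-rich. Whether this trend came from the library preparation or from the cells was not tested.

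Once the smooth dependence of counts on GC content and transcript length had been taken out of each library, 7 members were called higher and 1 lower, where 12.9% and 12.4% of all tested genes were called, and the members' median was 0.16. Of the 19 rises 5 passed both ways: MTX1 (0.83, edgeR adjusted p = 0.000511), TIMM50 (0.79, 0.00071), TOMM22 (0.49, 0.00104), GRPEL2 (0.42, 0.0121) and TOMM20 (0.36, 0.0367). TIMM17B (0.39) and GFER (0.32) were added, and TOMM7 was the 1 called lower (-0.55, edgeR adjusted p = 0.00544). TOMM40 was at -0.08 and no longer passed. TIMM9 (0.16), TOMM5 (0.19), TOMM6 (0.17), CHCHD4 (0.37), TIMM10 (0.21), TIMM10B (0.15), TIMMDC1 (0.13) and TOMM70 (0.04) kept their sign but did not pass. MTX2 (-0.25), TIMM8A (-0.27), TIMM8B (-0.22), TIMM17A (-0.09), TIMM21 (-0.07) and TIMM23 (-0.0042) changed sign, with none of these 6 past the test.

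**Figure D3:**
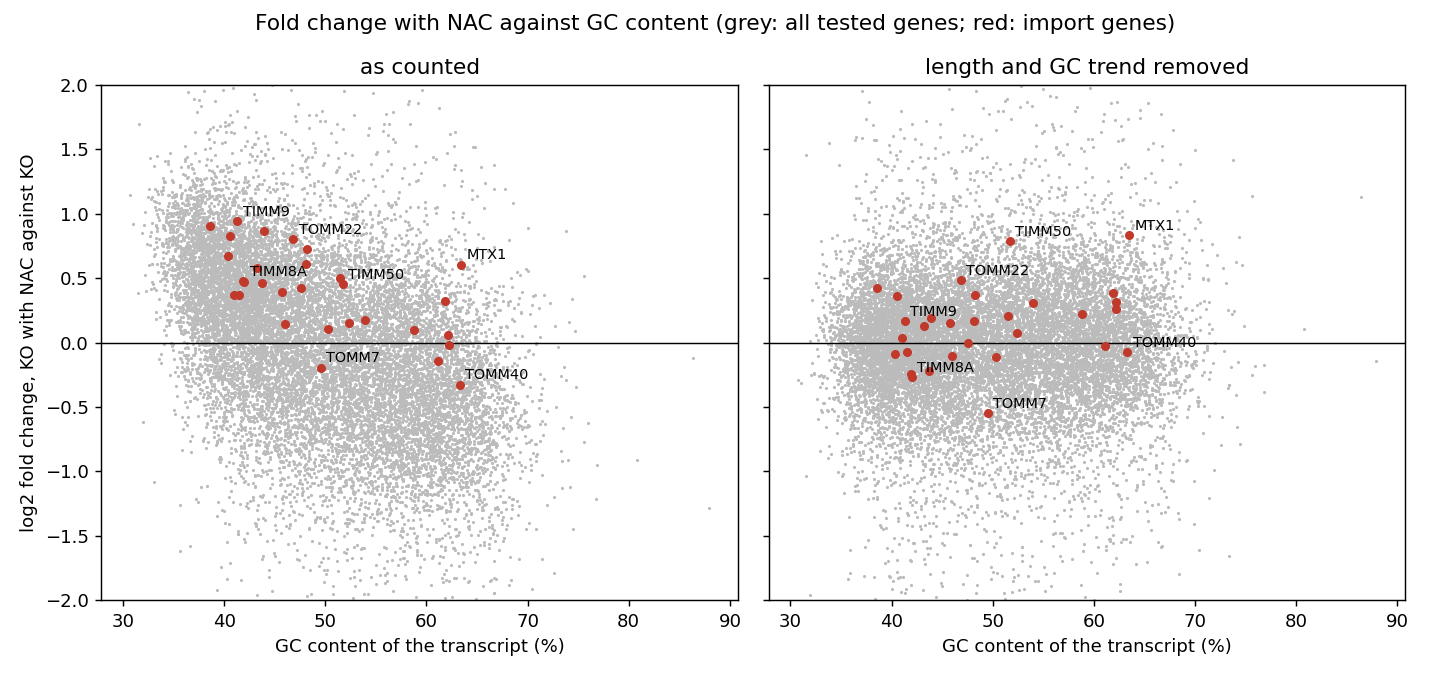
Log2 fold change of KO cells with NAC against KO cells, plotted over transcript GC content in percent, as counted (left) and with the length and GC trend removed (right). Grey points are all tested genes with known GC content (those beyond an absolute value of 2 are off the axis) and red points are import genes: the downward slope on the left is gone on the right, where MTX1 (0.83) and TIMM50 (0.79) are well above 0 and TOMM7 (-0.55) is below.

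Genes that work beside the listed machinery were followed with a list of 46, of which 45 were tested. Compared with WT, 0 of 45 were called in KO cells in edgeR (median log2FC -0.11, 34 of 45 below 0, with 1 higher and 6 lower at an unadjusted p under 0.05, where 9.50% and 8.12% of all tested genes were). With NAC 24 rose and 2 fell, against 23.8% and 20.8% of all tested genes, with a median of 0.38. Those with the largest changes were OMA1 (1.25, SE 0.14), a stress protease of the inner membrane, PMPCB (1.08, SE 0.13), the catalytic subunit of the presequence peptidase, ATAD1 (0.91, SE 0.12), which extracts mislocalised proteins from the outer membrane, IMMP2L (0.90, SE 0.21), an inner membrane peptidase, MIPEP (0.88, SE 0.10), the intermediate peptidase, and HSPE1 (0.84, SE 0.11), the chaperonin partner. With the length and GC trend removed HSPE1 turned to -0.11 (edgeR adjusted p = 0.602) and OMA1 (0.37, 0.0848) and ATAD1 (0.26, 0.103) no longer passed, while PMPCB (0.59), MIPEP (0.60) and IMMP2L (0.64) did. Chaperones and peptidases gave 9 rises of 13, the MICOS cristae complex 4 of 7, quality control 5 of 10 with 1 fall, cytosolic delivery chaperones 3 of 7, and other insertion factors 3 of 8 with 1 fall. In that fit 14 partners in all were called higher and 3 lower, against 12.9% and 12.4% of all tested genes.

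Culture in 5% O2 moved few import transcripts past the test. Compared with KO cells in normal O2, 1 of 31 members rose and 0 fell, with 3.68% of all tested genes called higher and 4.13% lower. At an unadjusted p under 0.05, 9 members were higher and 0 lower, where 12.4% of all tested genes were higher. The log2FC was above 0 for 25 of 31 members (49.9% of all tested genes), and its median was 0.12 over the members and -0.0002 over all tested genes. With the length and GC trend removed it was above 0 for 18 members and below 0 for 13. In 19 members both 5% O2 libraries lay above both KO libraries, against 30.7% of all tested genes, and in 1, TIMM29, both lay below (30.3%). Outer membrane, inner membrane and matrix or intermembrane space members had medians of 0.12, 0.08 and 0.36, the last over 4 tested genes. With the length and GC trend removed these medians were 0.04, -0.07 and 0.24.

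The member that rose was GRPEL1, the housekeeping nucleotide exchange factor of the motor. It was at 59.2 and 61.9 CPM in WT, at 60.8 and 63.1 in KO and at 87.8 and 80.8 in 5% O2, a 1.36-fold difference from KO (log2FC 0.45, SE 0.10, edgeR adjusted p = 0.0260). Both 5% O2 libraries lay above every other library, including NAC (73.8 and 62.9). The call was lost when any 1 of the 4 compared libraries was left out (log2FC 0.38 to 0.50) and with the length and GC trend removed (0.34, edgeR adjusted p = 0.0947).

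CHCHD4 had the largest log2FC in 5% O2, 0.54 (SE 0.16, edgeR adjusted p = 0.0618), at 25.4 and 25.3 CPM against 17.5 and 17.4 in KO. GRPEL1 came next, followed by TOMM20 (0.37), TOMM5 (0.32), TIMMDC1 (0.30), GRPEL2 (0.27) and TOMM22 (0.27), and none of these 5 passed. With the length and GC trend removed TOMM5 turned to -0.0017, while TOMM20 (0.20), TOMM22 (0.13), TIMMDC1 (0.12) and GRPEL2 (0.10) stayed above 0. With no filter on low counts 5 members passed as higher (4.91% of all tested genes), with only the compared libraries fitted 6 (9.53%), and with DESeq2 6 (8.98%). TOMM40 (-0.03), TIMM10 (-0.0028), TIMM8A (0.01) and GFER (-0.0075) lay near 0. Fold changes ran with GC content here too (Spearman -0.33 over 15281 genes, -0.65 over the 31 members), and with the trend removed 0 members were called in edgeR (1.06% of all tested genes higher, 0.358% lower), with 2 higher and 1 lower at an unadjusted p under 0.05 (8.82% and 7.58%), and the median was 0.04. The study's criteria called 0 members, against 0.811% of all tested genes higher and 1.21% lower. Of the 45 partners 5 rose and 0 fell, against 3.68% and 4.13% of all tested genes: OMA1 (0.58, SE 0.14), HSPE1 (0.53, SE 0.11), PMPCB (0.52, SE 0.13), MTCH2 (0.47, SE 0.09), an outer membrane insertase, and HSPA8 (0.38, SE 0.08), the cytosolic HSP70 that delivers precursors. With the trend removed 0 partners were called in edgeR, with these 5 at 0.13 to 0.34.

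**Figure D4:**
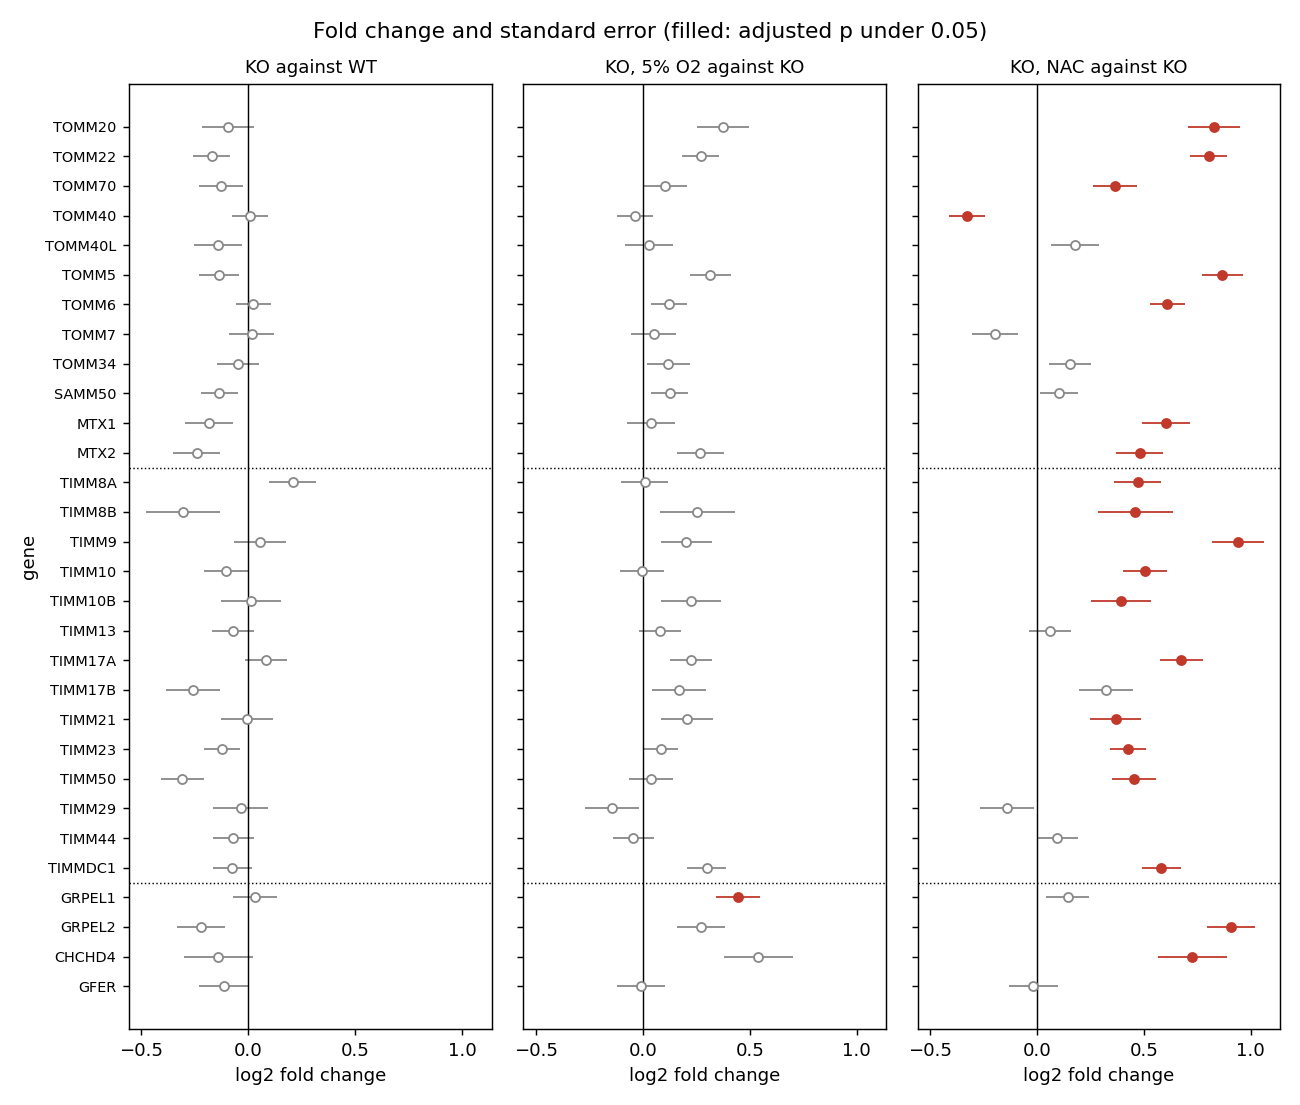
Log2 fold change and its standard error for 30 import genes in the 3 comparisons, with filled red points at an edgeR adjusted p under 0.05 and dotted lines between outer membrane, inner membrane and matrix or intermembrane space genes. No point is filled for KO against WT, 1 (GRPEL1) for 5% O2 and 20 for NAC, of which TOMM40 alone lies left of 0.

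Both culture changes were set against the same untreated KO libraries, so they were also compared with each other directly. They may differ in exposure time too, which cannot be told apart from treatment. With NAC, 13 of 31 members were higher than in 5% O2 and 2 were lower, with 15.5% and 13.6% of all tested genes called. The median log2FC was 0.21 over the members and 0.04 over all tested genes, and 25 of 31 members had a value above 0 (52.9% of all tested genes). In 20 members both NAC libraries lay above both 5% O2 libraries (33.4% of all tested genes) and in 3 below (29.2%). The study's criteria called 0 members, against 1.95% of all tested genes higher and 2.46% lower. Among the 13 called higher, TIMM9 was furthest above (36.8 and 36.6 CPM with NAC, 22.3 and 21.7 in 5% O2, log2FC 0.74, SE 0.12, edgeR adjusted p = 0.00143). GRPEL2 came next (85.5 and 72.4 with NAC, 53.5 and 48.1 in 5% O2, 0.64, SE 0.11, edgeR adjusted p = 0.00194). In both, each NAC library exceeded each 5% O2 library.

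MTX1, a metaxin, was at 30.96 and 35.2 CPM with NAC and at 22.8 and 21.9 in 5% O2 (0.56, SE 0.11). TOMM5 was at 142 and 167 against 106 and 104 CPM (0.55, SE 0.09). TOMM22 was at 252 and 227 against 169 and 162 CPM (0.53, SE 0.09). None of these groups overlapped. TIMM10 was at 51.0 and 49.6 against 36.3 and 34.4 CPM (0.51, SE 0.10). TOMM6 was at 211 and 202 against 146 and 149 CPM (0.49, SE 0.08). TIMM8A was at 29.7 and 29.9 against 21.4 and 21.8 CPM (0.46, SE 0.11). The NAC libraries of these genes, too, lay above the 5% O2 libraries. With the length and GC trend removed TIMM9 (0.29, edgeR adjusted p = 0.109), GRPEL2 (0.33, 0.0515), TOMM5 (0.19, 0.165) and TIMM8A (0.04, 0.841) did not pass.

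The 2 members lower with NAC than in 5% O2 were GRPEL1 (log2FC -0.30, SE 0.10, edgeR adjusted p = 0.0440) and TOMM40 (-0.29, SE 0.08, edgeR adjusted p = 0.0222). The GRPEL1 call was lost without either 5% O2 library or without NAC replicate 2 (-0.19, edgeR adjusted p = 0.182), and the TOMM40 call without 5% O2 replicate 2 or NAC replicate 1. With the length and GC trend removed 5 members were higher (MTX1, TIMM50, TIMM10, TOMM22 and TOMM6) and 2 lower, GRPEL1 (-0.45, edgeR adjusted p = 0.00907) and TOMM7 (-0.43, edgeR adjusted p = 0.0264), where 7.44% and 8.43% of all tested genes were called. CHCHD4 did not differ past the test (0.19, SE 0.16), with 34.3 and 23.3 CPM with NAC on either side of 25.4 and 25.3 in 5% O2. Without 5% O2 replicate 2, 5 members were called higher and 0 lower (3.83% and 4.31% of all tested genes). Among the partners 21 were higher and 3 lower (15.5% and 13.6% of all tested genes), the furthest being AGK (0.83, SE 0.19), a TIM22 subunit, ATAD1 (0.83, SE 0.12), LONP1 (-0.73, SE 0.09), the matrix protease, OMA1 (0.67, SE 0.14), STOML2 (0.66, SE 0.09), an inner membrane scaffold, and IMMP2L (0.66, SE 0.21). With the trend removed OMA1 (0.13) and IMMP2L (0.52) no longer passed.

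Ratios within paralog pairs describe the balance between related subunits. The GRPEL1 to GRPEL2 ratio, in counts per transcript length, was 1.83 and 1.90 in WT, 2.06 and 2.42 in KO, 2.49 and 2.55 in 5% O2 and 1.31 and 1.32 with NAC. The 5% O2 libraries had the highest ratios and the NAC libraries the lowest. The TOMM40 to TOMM40L ratio was 17.4 and 17.3 in WT, 18.3 and 20.3 in KO, 16.9 and 20.1 in 5% O2 and 13.1 and 14.1 with NAC, so it too was lowest with NAC. The TIMM17A to TIMM17B ratio was 0.41 and 0.28 in WT, 0.44 and 0.41 in KO, 0.45 and 0.43 in 5% O2 and 0.49 and 0.59 with NAC, with the NAC pair above the rest. These ratios carry the GC trend, and TIMM17A and TIMM17B are far apart in GC content (40.4% and 61.9%): with the trend removed, NAC against KO gave -0.09 for TIMM17A and 0.39 for TIMM17B, the opposite order to the counted one. For GRPEL1 and GRPEL2 (-0.11 and 0.42) and for TOMM40 and TOMM40L (-0.08 and 0.31) the order of the log2FC stayed as counted. The TIMM8A to TIMM8B ratio was 0.157 and 0.103 in WT, 0.205 and 0.157 in KO, 0.140 and 0.162 in 5% O2 and 0.201 and 0.162 with NAC, and those groups overlapped. With 2 libraries a group, an exact permutation test of a single ratio cannot reach a p under 0.05, and none was run.

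Per library behind those ratios, TIMM17B was at 78.8 and 74.0 CPM in 5% O2 and at 90.5 and 79.3 with NAC, while TIMM17A was at 70.7 and 64.2 in 5% O2. TOMM40L stayed between 22.6 and 26.5 CPM in all 8 libraries. TIMM8B ranged from 68.9 to 119 CPM and its replicates were far apart (78.1 and 114 in WT, 68.9 and 86.7 in KO, 98.6 and 87.2 in 5% O2, 95.1 and 119 with NAC). TIMM8A, the X-linked gene of deafness-dystonia syndrome, was at 19.1 and 18.2 CPM in WT, at 21.9 and 21.1 in KO and at 21.4 and 21.8 in 5% O2.

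**Figure D5:**
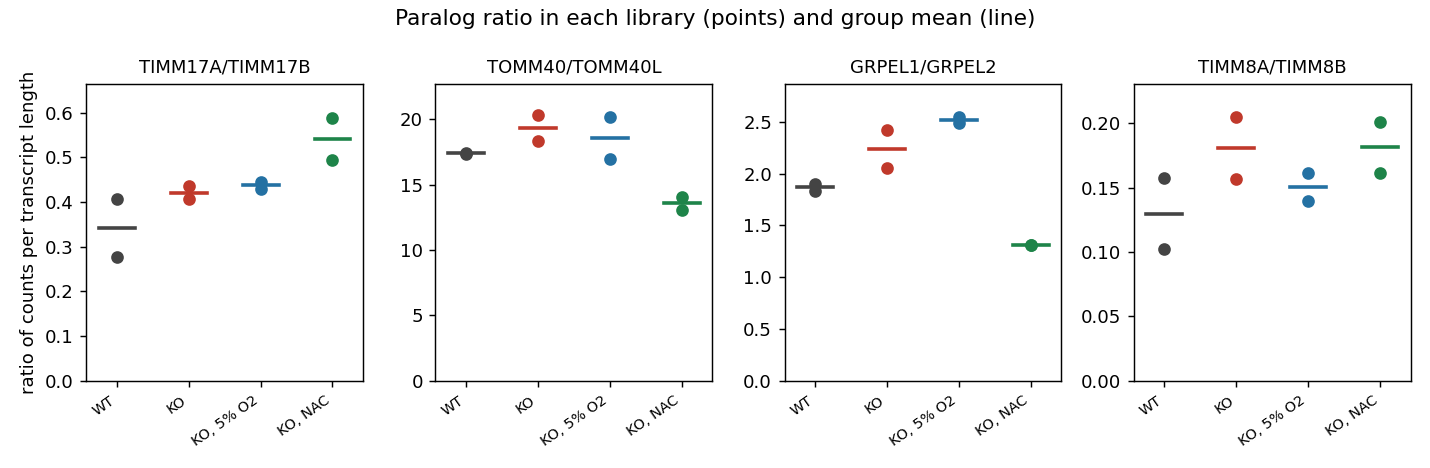
Ratio of counts per transcript length for 4 paralog pairs in each library (points) with the group mean (line), each axis starting at 0. The GRPEL1 to GRPEL2 ratio is 1.31 and 1.32 with NAC and 2.49 and 2.55 in 5% O2, and the TOMM40 to TOMM40L ratio is lowest with NAC.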

How the data were processed

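RNA-seq libraries of WA26 hESCs were made with a TruSeq kit, and reads were processed by the authors: FastQC (0.11.9), HISAT2 alignment to hg38 and featureCounts, per the submitters' processing notes and the methods. The deposited table holds whole-number read counts of 28278 genes in 8 libraries. The annotation used for counting is not given in the sources used here. The paper states default parameters for featureCounts and does not name a strand setting. Of 12 labelled samples, 4 (WT with NAC or in 5% O2) are not analysed here.

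Counts were fitted with edgeR 4.0.16 (R 4.3.3, limma 3.58.1) using trimmed mean of M-values factors and filterByExpr (minimum count 10, keeping 15916 of 28278 genes). Each gene got 1 term per group and no replicate block, and quasi-likelihood tests with Benjamini-Hochberg adjustment over all tested genes were called at 0.05. The biological coefficient of variation was 13.71% and the design left 4 residual degrees of freedom. CPM were TMM-scaled. RPKM used lengths of GENCODE canonical transcripts on hg38, which also gave shared 31-base words and overlaps. Trends on GC content and transcript length, known for 96.01% of tested genes, were removed with mgcv 1.9.3 as offsets. DESeq2 1.42.0, RLE and upper quartile factors, other filters, the replicate block, only the libraries compared, the study's criteria and leaving out each library were alternatives. Replicates differed beyond counting noise (chi-square per degree of freedom 9.79 to 32.4). The code was tested on simulated data. Promoters came from RefSeq on GRCh38.p14.

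The members and lists were chosen with earlier results of these data known. All members were accounted for. Values per library were given for UBQLN1, for 4 paralog pairs and, in each comparison, for up to 8 members with the largest absolute log2FC among those past the threshold, or the 3 with the lowest unadjusted p where none passed. Partners past the threshold were named up to 6 per comparison. TOMM7, GFER, TIMM50 with NAC, and CHCHD4 in 5% O2 were chosen after their values were seen.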

Additional observations from a re-analysis of the deposited data

How the results depend on the processing

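RLE or upper quartile factors, a minimum of 10 counts in every library and DESeq2 left the counts of called import genes within 1.5 times of those reported, except DESeq2 in 5% O2. For KO against WT, no filter gave 1 lower member. For 5% O2 against KO, members called higher numbered 5 with no filter, 6 with only the compared libraries fitted and 6 with DESeq2. For NAC against 5% O2, fitting only the compared libraries gave 1 lower. The study's criteria (absolute log2FC over 1, unadjusted p under 0.05) called 0 members in any of these comparisons.

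With the length and GC trend removed, NAC against KO gave 7 higher and a median of 0.16, 5% O2 against KO 0 and 0.0423, and NAC against 5% O2 5 and 0.10. Among members that passed in at least 1 of these fits, signs turned for MTX2 (-0.25), TIMM8A (-0.27), TIMM8B (-0.22), TIMM17A (-0.0864), TIMM21 (-0.0720), TIMM23 (-0.0042) and GFER (0.32) in NAC against KO, and for TIMM17A (-0.0036) in NAC against 5% O2. Members that passed in neither fit also turned, among them SAMM50 and GRPEL1 in NAC against KO and MTX2, TIMM8B and TIMM21 in NAC against 5% O2. In 5% O2 against KO all 3 small TOM genes and 4 of 6 small TIM genes lay below 0 with the trend removed, against 0 and 1 as counted. The cause was not tested.

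Replicate numbers did not pair the samples: deviations from group means correlated at -0.02 to 0.08 between groups. A replicate block gave 2 members higher in 5% O2 (GRPEL1 and TOMM20) and moved no other count by over 1.5 times. Shares of all tested genes are not given for fits with the block, so their counts describe only how the calls moved. Block and trend removal together gave 7 and a median of 0.17 for NAC against KO, 0 and 0.0429 for 5% O2 against KO, and 5 and 0.10 for NAC against 5% O2, with MTX2 at -0.25, TIMM8A at -0.27, TIMM8B at -0.22, TIMM17A at -0.0857, TIMM21 at -0.0719, TIMM23 at -0.0039, GFER at 0.32 and, against 5% O2, TIMM17A at -0.0032.

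Leaving out 1 library, assuming a lone sample varies like the other groups, gave 0 to 0 called members and a median of -0.13 to -0.05 for KO against WT, nearest 0 without WT replicate 2. It gave 16 to 18 higher, 0 to 2 lower and a median of 0.36 to 0.47 for NAC against KO, with 0 lower without KO replicate 2 and 2 without NAC replicate 1. It gave 0 to 0 higher and a median of 0.11 to 0.15 for 5% O2 against KO. For NAC against 5% O2 it gave 5 to 15 higher, 0 to 2 lower and a median of 0.14 to 0.33, the lowest counts without 5% O2 replicate 2. Shares of all tested genes are not given for most of these fits, so the ranges describe only how the calls moved. Groups of 2 limit every test here, and counts of 20 or fewer leave TIMM22 and PAM16 unresolved.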

Other observations

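TIMM23B, a near copy of the channel gene TIMM23 that was not in the list, shared 76.4% of its 31-base words with other places on the primary chromosomes of hg38. It had 111 and 116 counts in WT, 105 and 122 in KO, 124 and 95 in 5% O2 and 156 and 157 with NAC. It rose with NAC (log2FC 0.68, SE 0.24, edgeR adjusted p = 0.0360), and with the length and GC trend removed it did not pass (0.26, edgeR adjusted p = 0.464). TIMM23 itself stood at 0.43 and, with the trend removed, at -0.0042.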
